A study of Arabidopsis thaliana with 11 samples.

Results

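The genes described here are those encoded in the chloroplast genome of Arabidopsis thaliana, taken as the rows of the deposited expression table whose locus code begins with ATCG and whose value reached 3.32, a linear value of 10, in at least 2 of the 11 libraries. Of 133 such rows 114 qualified, out of 29853 qualifying genes among the 33602 rows of the whole table. The series asked how gene expression changes along the stomatal lineage of the leaf epidermis, in which a precursor turns into a meristemoid, then a guard mother cell, then a pair of guard cells. RNA was sequenced from protoplasts sorted by fluorescence from the aerial parts of 10-day-old Columbia seedlings after 2 h of cell wall digestion.

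The sorted lines each carried 1 marker. SSY carries SPCHp::SPCH-YFP, a fusion protein under the SPCH promoter, and marks meristemoid mother cells and young meristemoids (3 libraries). MG carries MUTEp::nucGFP, a nuclear GFP under the MUTE promoter, and marks late meristemoids and young guard mother cells (2 libraries). FGF carries FAMAp::GFP-FAMA, a fusion protein under the FAMA promoter, and marks guard mother cells at their last stage and newly formed guard cells (2 libraries). E1728G is the enhancer trap line E1728::GFP and marks mature guard cells (2 libraries). ML1Y carries ML1p::YFP-RCI2A, in which the ML1 promoter drives a YFP fusion in all epidermal cells, those of the lineage included, and it served as the comparison for the other 4 lines (2 libraries). The labels do not say whether libraries of a line came from separate plantings, so the p-values measure the spread between these libraries, which may be technical. The table holds log2 values that the authors had already normalized, and the number of reads per library is not known here.

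Chloroplasts keep a small genome that encodes subunits of the photosystems, the cytochrome b6f complex, the ATP synthase, the NDH complex and Rubisco, together with ribosomal RNAs, transfer RNAs, some ribosomal proteins and the core of a bacterial-type RNA polymerase. All other subunits of these complexes, and the sigma factors that guide the plastid polymerase, are nuclear genes whose products are imported. Many chloroplast genes are transcribed together in long units, and their RNA levels depend on processing and protection by nuclear-encoded RNA-binding proteins as well as on transcription. Pavement cells of the Arabidopsis epidermis hold small and few chloroplasts, guard cells hold more developed ones, and mesophyll cells hold the most.

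The RefSeq annotation used here (TAIR10.1) lists 129 chloroplast genes, namely 85 for proteins, 37 for transfer RNAs and 7 for ribosomal RNAs, but under other codes, and 0 of the ATCG codes could be looked up in it. Its notes on nuclear genes name 6 of the members as the closest chloroplast relative of a nuclear protein, and only these 6 are given a name and a role below. The other 108 members are described as a group and, for a few, by code. The chloroplast genome carries a large inverted repeat with identical gene copies, and 15 chloroplast gene symbols are listed at 2 positions or more in the annotation. Accordingly, 11 pairs of member rows lay within 0.31 log2 units of each other in all 11 libraries, so reads of such copies cannot be assigned to either and these 22 rows hold the information of 11.

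The genes behind the marker lines were in part where the labels put them. SPCH, the gene behind the SSY line, went against its label. It stood at 5.46, 6.12 and 5.15 in the libraries labelled SSY, 7.12 and 5.55 in MG, 6.68 and 8.26 in FGF, and 5.81 and 6.36 in E1728G, against 6.36 and 5.92 in ML1Y. Its mean was lowest in the libraries labelled SSY (-0.56 ± 0.62 against ML1Y, adjusted p = 0.649), and it passed in no comparison. In the same libraries FAMA, which acts later in the lineage, rose (11.55, against 8.59 in ML1Y; adjusted p = 0.0317), as did TGG1, a myrosinase of guard cells (19.66, against 16.85 in ML1Y; adjusted p = 0.00372). SSY is used below as the name of a label. MUTE rose in MG (8.75, against 4.54 in ML1Y; adjusted p = 0.00467) and FAMA in FGF (14.47, against 8.59 in ML1Y; adjusted p = 0.0024). ATML1, the gene behind the ML1Y line, averaged 8.47 in ML1Y, 8.85 in SSY (11.21 in replicate 2), 9.42 in MG, 8.38 in FGF and 7.80 in E1728G. It passed in no comparison. By summed values, given below, ML1Y was the lowest group for epidermis markers and the highest for mesophyll markers. By the median difference over the 7 epidermis markers, E1728G lay below ML1Y (-0.48) and the other lines lay above it. ML1Y is likewise used as the name of a label. The libraries labelled SSY also had an interquartile range of 2.13 to 2.30 over tested genes, beside 2.67 to 3.28 over the remaining 8.

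Chloroplast transcripts stood, by their median, lower in every stage library than in both libraries labelled ML1Y. The median value of the 114 genes was 9.34, 7.96 and 8.41 in SSY replicates 1, 2 and 3, 9.39 and 8.85 in MG, 8.64 and 8.97 in FGF, and 8.24 and 9.55 in E1728G, against 11.25 and 11.16 in ML1Y. The lowest ML1Y median thus lay above the highest median of any stage library. The median of all tested genes did not show this shift, at 5.39 to 5.56 in the 9 stage libraries and 5.60 and 5.61 in ML1Y. For 86 of the 114 genes all 9 stage libraries lay below both ML1Y libraries, which held for 6.46% of all tested genes. Of these members 2 had met the threshold through the ML1Y libraries alone and so had to lie lower elsewhere. Without them it was 84 of 112. ATCG00460, among the 84, reached the threshold outside ML1Y only in MG replicate 1, at 3.81. The share over all tested genes was not corrected for genes kept in this way. In sorted cells, fewer cells of a type and less RNA per cell cannot be told apart.

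**Figure D1:**
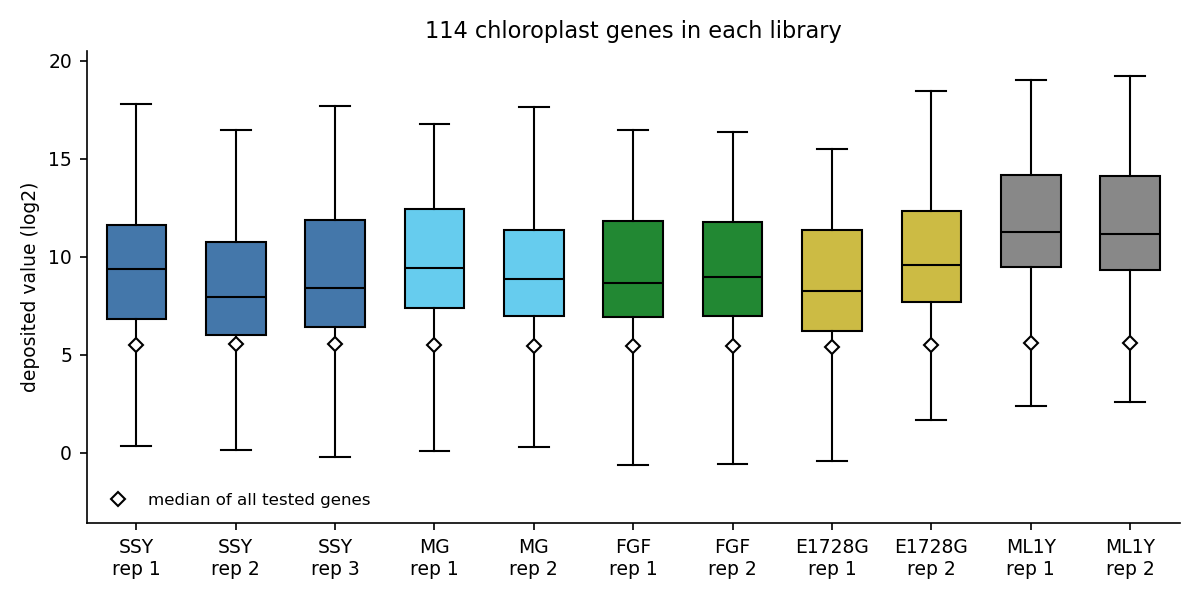
Deposited log2 values of the 114 chloroplast genes in each of the 11 libraries (boxes: quartiles and median; whiskers: lowest and highest gene), with the median of all 29853 tested genes as diamonds. The medians of both ML1Y boxes lie above those of the 9 stage libraries, although the boxes overlap, while the diamonds stay between 5.39 and 5.61.

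Put on a linear scale, as 2 to the power of the value, all 133 chloroplast rows made up 5.05%, 1.48% and 3.85% of the sum over all rows in SSY replicates 1, 2 and 3. They made up 4.86% and 3.84% in MG, 2.89% and 2.81% in FGF, and 1.95% and 6.91% in E1728G, against 20.4% and 21.6% in ML1Y. The stage library with the highest share, E1728G replicate 2, reached 0.339 of the lower ML1Y share. Both MG libraries lay above both FGF libraries, while the SSY and E1728G libraries spread across both. The order of MG and FGF did not hold without the row pair described next. These shares are not per length, and long genes weigh more in them.

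The composition of the chloroplast sum also differed. The member of highest mean, ATCG00950, and a second row within 0.0123 of it in each library held 45.5%, 47.4% and 53.8% of that sum in the SSY libraries, 22.4% and 56.9% in MG, 31.7% and 30.3% in FGF, and 21.8% and 52.3% in E1728G, against 9.05% and 9.47% in ML1Y. ATCG00950 itself stood at 17.76, 16.43 and 17.69 in SSY, 16.53 and 17.63 in MG, 16.46 and 16.36 in FGF, and 15.44 and 18.44 in E1728G, against 17.28 and 17.46 in ML1Y. Some stage libraries lay above ML1Y and others below, and the gene did not pass the test in any comparison, with a log2 difference of -0.08 ± 0.72 (standard error of the fit) for SSY minus ML1Y and -0.43 ± 0.79 for E1728G minus ML1Y. With this pair set aside, chloroplast rows made up 0.782% to 3.81% of the remaining sum in the 9 stage libraries and 18.9% and 19.98% in ML1Y. MG replicate 1 was then at 3.81%, while MG replicate 2, at 1.69%, lay below both FGF libraries (1.99% and 1.98%).

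**Figure D2:**
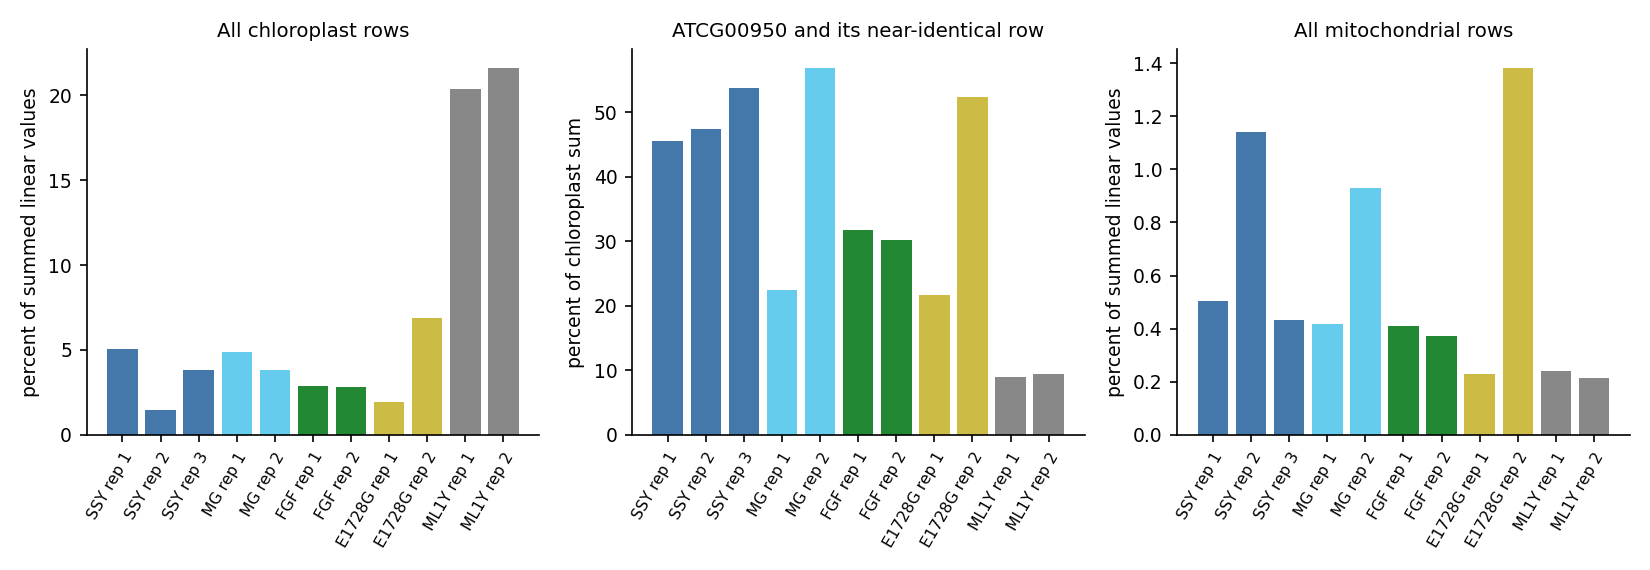
Percent of the summed linear values held by all chloroplast rows, percent of the chloroplast sum held by ATCG00950 and its near-identical row, and percent of the summed linear values held by all mitochondrial rows, in each library. Chloroplast rows hold 20.4% and 21.6% in ML1Y and at most 6.91% in a stage library, the row pair holds 21.8% or more of the chloroplast sum in each stage library, and mitochondrial rows range from 0.216% to 1.38%.

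The libraries labelled SSY were set against those labelled ML1Y with limma across all tested genes and Benjamini-Hochberg adjustment at 0.05. Of the 114 chloroplast genes 59 fell and 0 rose, beside 4.75% of all tested genes that fell and 0.801% that rose. At an unadjusted p under 0.05, 88 were lower and 0 higher. The share of all tested genes under that cut is not given, here or in the comparisons below. Such counts therefore have no background beside them. The median log2 difference was -2.77, a level 6.82-fold lower, with quartiles of -3.74 and -1.73, while the median of all tested genes was 0.06. Negative differences belonged to 112 of the 114 and to 47.6% of all tested genes. For 96 of the 114 the 3 SSY libraries lay below both ML1Y libraries (21.6% of all tested genes). Without the 2 members that met the threshold through ML1Y alone it was 94 of 112. Without ML1Y replicate 1 the count that fell was 16 and without ML1Y replicate 2 it was 13, and 13 of the 59 passed in all 11 fits that left out a library. A fit of only SSY and ML1Y called 28. With the members split by their mean over the 11 libraries into 4 bins, the median difference was -2.29, -2.76, -2.45 and -3.12 from the lowest bin to the highest, and 14 of 29, 14 of 28, 10 of 28 and 21 of 29 fell.

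The smallest adjusted p in that comparison belonged to ATCG00930, which stood at 4.47, 4.01 and 3.94 in the SSY libraries, against 9.60 and 9.19 in ML1Y. The libraries are far apart, with a log2 difference of -5.26 ± 0.53 (38.2-fold lower, adjusted p = 0.000163). The lowest fitted difference of any member was that of ATCG00210, at 1.71, 2.46 and 2.73 in SSY and 7.82 and 7.46 in ML1Y (-5.34 ± 0.63, adjusted p = 0.00030). In SSY the values of ATCG00210 lay below the threshold of 3.32. Both genes passed in all 11 fits that left out a library, and ATCG00930 is 1 of the rows with a near-identical partner. At the other end, ATCG01160 had a positive difference of 1.17 ± 0.90 (adjusted p = 0.497), which came from SSY replicate 2 at 6.19, while its other 10 libraries lay between 2.11 and 3.38. In the same library ATCG00970, a chloroplast row that missed the threshold for membership, stood at 5.69, against 1.89 to 2.27 in the other 10.

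In MG, the late meristemoids and young guard mother cells, 18 of the 114 chloroplast genes fell and 0 rose against ML1Y (1.43% of all tested genes fell and 0.188% rose; 79 members were lower and 0 higher at an unadjusted p under 0.05). The median log2 difference was -2.50, or 5.66-fold lower, with quartiles of -3.02 and -1.64, beside 0.03 over all tested genes. For 105 members both MG libraries lay below both ML1Y libraries, which held for 22% of all tested genes. Leaving out the 2 members that met the threshold through ML1Y alone gave 103 of 112. ATCG00930 stood at 5.09 and 6.18 in MG, again clear of ML1Y (-3.76 ± 0.58, adjusted p = 0.00481). The count fell to 1 without ML1Y replicate 1, to 0 without ML1Y replicate 2 and to 2 without MG replicate 2, while a fit of the 2 groups alone gave 30. ATCG00930 lost its call without ML1Y replicate 1 (adjusted p = 0.0505) or 2 (adjusted p = 0.0541).

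FGF, the last guard mother cells and newly formed guard cells, had 23 chloroplast genes that fell and 0 that rose against ML1Y (1.89% of all tested genes fell and 0.221% rose; 78 members were lower and 0 higher at an unadjusted p under 0.05). The median log2 difference was -2.38, or 5.19-fold lower, with quartiles of -3.13 and -1.70, beside 0.04 over all tested genes. Both FGF libraries lay below both ML1Y libraries for 108 members (25.3% of all tested genes). With the 2 members that met the threshold through ML1Y alone set aside, it was 106 of 112. ATCG00930 stood at 6.13 and 5.32 in FGF, a log2 difference of -3.67 ± 0.58 (adjusted p = 0.00403, and 0.0809 without FGF replicate 2). The count was 5 without ML1Y replicate 1, 4 without ML1Y replicate 2, 8 without FGF replicate 1 and 4 without FGF replicate 2. A fit of only FGF and ML1Y called 73.

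In E1728G, the mature guard cells, 20 of the 114 fell and 0 rose against ML1Y (2.09% of all tested genes fell and 0.348% rose; 77 members were lower and 0 higher at an unadjusted p under 0.05). The median log2 difference was -2.45, or 5.48-fold lower, with quartiles of -2.99 and -1.69, beside 0.03 over all tested genes. All 114 differences were negative, as were 48.3% of those over all tested genes. For 102 members both E1728G libraries lay below both ML1Y libraries (25.5% of all tested genes). Setting aside the 2 members that met the threshold through ML1Y alone left 100 of 112. ATCG00930 stood at 5.54 and 6.44 in E1728G (-3.40 ± 0.58, adjusted p = 0.00664), a call lost without E1728G replicate 1 or either ML1Y library. The count was 3 without ML1Y replicate 1, 2 without ML1Y replicate 2, 2 without E1728G replicate 1, 31 without SSY replicate 2, 32 without SSY replicate 3, 36 without the mean trend in the variances and 45 in a fit of the 2 groups alone. The 4 comparisons share the ML1Y libraries, so their results are not independent of each other.

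**Figure D3:**
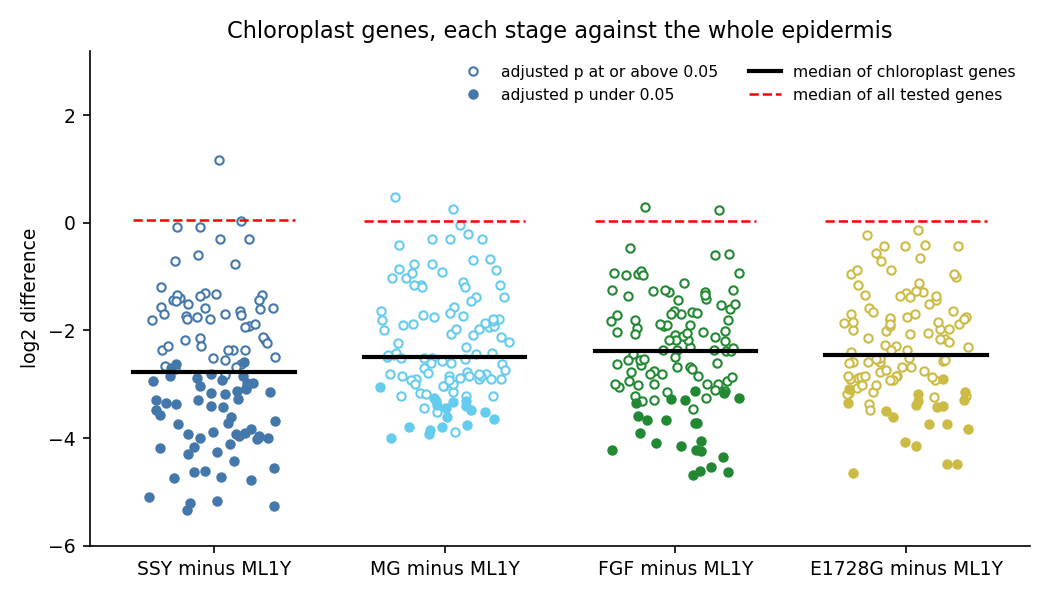
Log2 difference of each of the 114 chloroplast genes (points, filled where the adjusted p is under 0.05) for each stage minus ML1Y, with the median over the chloroplast genes (black) and over all tested genes (dashed). The chloroplast medians lie at -2.77, -2.50, -2.38 and -2.45, while the medians of all tested genes lie between 0.03 and 0.06.

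Between lines taken in the order of their labels, 1 chloroplast gene passed the test. The SSY markers given above went against that order. TGG1 was lower in MG than in SSY (-2.54 ± 0.49, adjusted p = 0.0197). For MG against SSY the median log2 difference was 0.53, beside -0.05 over all tested genes. Of the 114 members 82 were positive and 32 negative, while 52.3% of all tested genes were negative. In this comparison 1 chloroplast gene rose (1.75% of all tested genes rose, and 12 members were higher and 0 lower at an unadjusted p under 0.05). That gene was ATCG00210, at 5.10 and 5.27 in MG and 1.71, 2.46 and 2.73 in the libraries labelled SSY (2.89 ± 0.63, adjusted p = 0.0312). The groups do not overlap, but the SSY values lie under the threshold of 3.32, and the call was lost without any 1 of the MG, SSY or ML1Y libraries (adjusted p 0.0596 to 0.155) and in a fit of the 2 groups alone. For FGF against MG, limma called 0 of the 114 (0.137% of all tested genes), 1 had an unadjusted p under 0.05, and the median was -0.19, or 0.24 without MG replicate 1. The gene with that p was ATCG00410, at 2.79 and 5.71 in FGF and 1.02 and 1.52 in MG (2.98 ± 0.76, adjusted p = 0.156). Without FGF replicate 1, 1 member was called. For E1728G against FGF, limma called 0 (0.01% of all tested genes), 0 had an unadjusted p under 0.05, and the median was 0.07, or -0.40 without E1728G replicate 2.

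The libraries of a stage differed among themselves over the chloroplast genes. E1728G replicate 2 was higher than replicate 1 for 107 of 114 members, by a median of 0.993, and SSY replicate 1 was higher than SSY replicate 2 for 96, by a median of 1.12. FGF replicates 1 and 2 were close, with a median difference of 0.149 and 65 members higher in replicate 2, and the ML1Y replicates were closest, with a median difference of 0.00985. The root mean square of the standard deviations over members was 1.03 in SSY, 0.85 in MG, 0.63 in FGF and 1.09 in E1728G, against 0.23 in ML1Y, and over all tested genes it was 0.91 in SSY, 0.74 in MG, 0.61 in FGF, 0.67 in E1728G and 0.46 in ML1Y. The fit uses 1 spread per gene for all groups. In SSY replicate 1, 14 of the 114 reached the lower ML1Y value and in E1728G replicate 2, 12 did, while E1728G replicate 1 had 0. Over all tested genes, 55.2% to 62.4% reached it in each stage library.

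Of the 3 named ribosomal protein genes, L2 passed the test in 4 stages, S11 in 3 and L20 in 0. Ribosomal protein L2 (ATCG01310), a core protein of the large subunit near the peptidyl transferase centre, stood at 13.90, 12.52 and 12.10 in SSY, 14.37 and 13.02 in MG, 13.09 and 12.46 in FGF, and 13.21 and 13.33 in E1728G, against 17.04 and 16.97 in ML1Y. Every stage library lay well under both ML1Y libraries. L2 fell in all 4 stages, with log2 differences of -4.17 ± 0.70 in SSY (adjusted p = 0.00304), -3.31 ± 0.76 in MG (adjusted p = 0.0428), -4.23 ± 0.76 in FGF (adjusted p = 0.00935) and -3.74 ± 0.76 in E1728G (adjusted p = 0.0171). The call in each stage was lost without either ML1Y library, in SSY at adjusted p = 0.0598 without ML1Y replicate 1 and 0.0679 without ML1Y replicate 2. In FGF and E1728G it was also lost without either library of that stage, and in MG without any library other than those of SSY. L2 is 1 of the rows with a near-identical partner.

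Ribosomal protein S11 (ATCG00750), a protein of the small subunit, stood at 11.30, 9.66 and 10.39 in SSY, 12.47 and 10.53 in MG, 10.94 and 10.65 in FGF, and 11.04 and 11.32 in E1728G, against 15.06 and 14.97 in ML1Y. No stage library came near ML1Y. S11 fell in SSY (-4.57 ± 0.77, adjusted p = 0.00331), FGF (-4.22 ± 0.85, adjusted p = 0.0169) and E1728G (-3.84 ± 0.85, adjusted p = 0.0266), and its difference in MG was -3.51 ± 0.85 (adjusted p = 0.054). Each of the 3 calls was lost without either ML1Y library, and those in FGF and E1728G without either library of the stage. In MG, leaving out MG replicate 1 or any SSY library gave an adjusted p of 0.0329 to 0.0475.

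Ribosomal protein L20 (ATCG00660), a protein of the large subunit, stood at 11.23, 8.98 and 8.04 in SSY, 9.33 and 8.60 in MG, 8.46 and 8.91 in FGF, and 8.56 and 10.57 in E1728G, against 10.16 and 10.10 in ML1Y. SSY replicate 1 and E1728G replicate 2 lay above both ML1Y libraries and the other stage libraries below both. Its differences were -0.71 ± 0.92 in SSY, -1.16 ± 1.00 in MG, -1.44 ± 1.00 in FGF and -0.56 ± 1.00 in E1728G. The test was passed in no stage (adjusted p 0.686 to 0.937).

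The plastid-encoded ClpP (ATCG00670), the proteolytic subunit of the Clp protease that degrades stromal proteins, stood at 12.37, 11.65 and 12.10 in SSY, 12.08 and 11.96 in MG, 11.99 and 11.21 in FGF, and 10.81 and 12.31 in E1728G, against 13.26 and 13.68 in ML1Y. All 9 stage libraries lay under ML1Y, by differences of -1.43 ± 0.70 to -1.91 ± 0.77, none of which passed (adjusted p 0.28 to 0.574). In land plants clpP is known as a gene read in large part by the nuclear-encoded plastid polymerase. ATCG00530, named in the notes as related to CemA, an inner envelope protein linked to proton export, stood at 11.50, 9.31 and 10.80 in SSY, 10.44 and 9.87 in MG, 9.91 and 10.03 in FGF, and 10.14 and 11.05 in E1728G, against 12.51 and 12.79 in ML1Y. The stage libraries again lay under ML1Y without a call (-2.05 ± 0.85 to -2.68 ± 0.85, adjusted p 0.14 to 0.30).

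ATCG00430 is called photosystem II reaction center protein G in the notes, which give it as the closest relative of a nuclear gene for a 20 kDa subunit of the mitochondrial NADH:ubiquinone oxidoreductase. The name and the relative belong to different complexes, and the name was not checked here. No role in photosystem II is therefore assigned to ATCG00430. ATCG00430 stood at 11.18, 11.002 and 14.78 in SSY, 11.02 and 10.92 in MG, 11.50 and 11.79 in FGF, and 11.10 and 11.39 in E1728G, against 13.77 and 13.88 in ML1Y. SSY replicate 3 lay above both ML1Y libraries while the other 8 stage libraries lay below both. The differences in the 4 stages were -1.51 ± 0.96 to -2.85 ± 1.05 and passed in no stage (adjusted p 0.276 to 0.439). Without SSY replicate 3 the gene was called lower in SSY (adjusted p = 0.0252), MG (adjusted p = 0.0351) and E1728G (adjusted p = 0.0433).

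**Figure D4:**
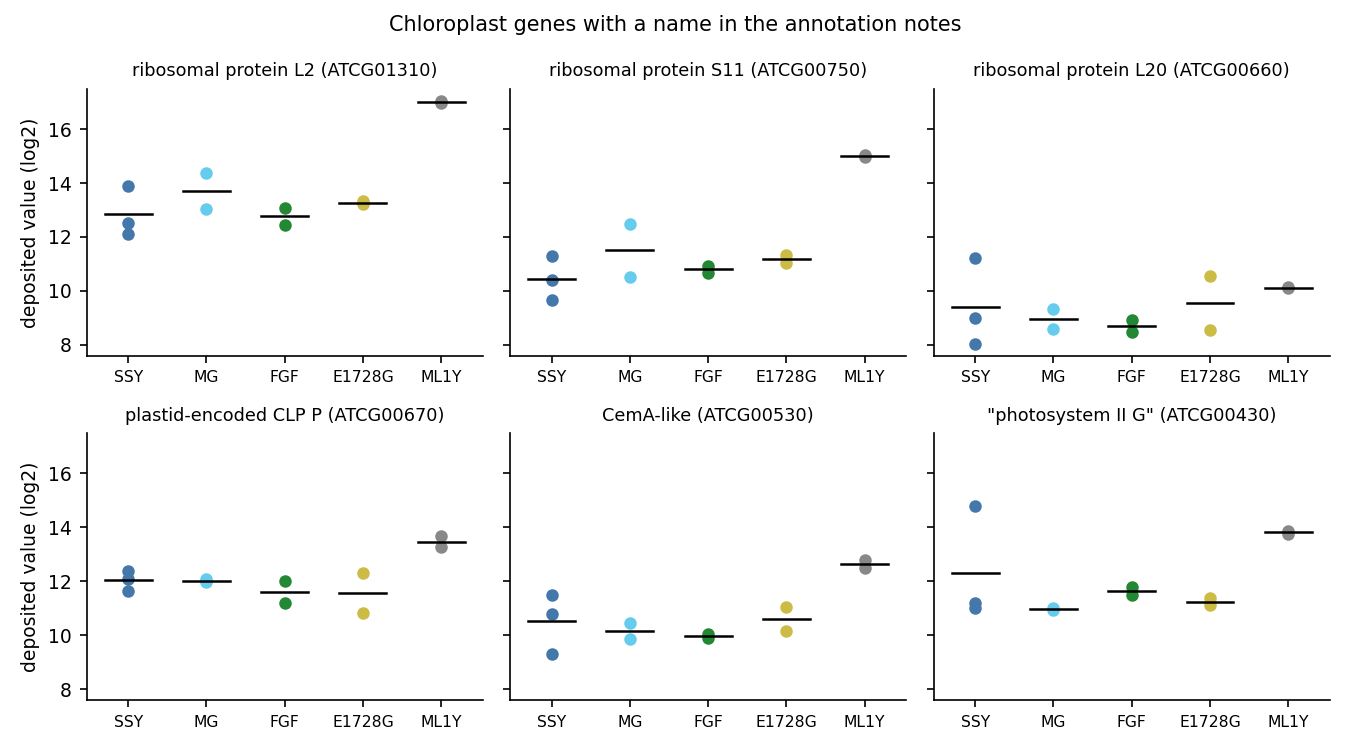
Deposited log2 values of the 6 chloroplast genes that the annotation notes name, in each library of each line (points), with the group mean (line). L2 and S11 lie at 12.1 to 14.37 and 9.66 to 12.47 in the stage libraries and at about 17 and 15 in ML1Y, while L20 overlaps ML1Y and SSY replicate 3 stands apart for ATCG00430.

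The threshold left out 19 chloroplast rows, of which 16 did not reach 3.32 in any library and 3 reached it in 1. Of the 114 members 104 reached it in all 11 libraries. Just inside were 3 members that reached it in 2 libraries, ATCG00200 and ATCG00320 in both ML1Y libraries (4.14 and 3.98, and 3.88 and 3.69) and ATCG01160 as given above. Since ATCG00200 and ATCG00320 were kept through ML1Y alone, their lower values elsewhere are not a finding. Without them 57 of 112 fell in SSY, 17 in MG, 22 in FGF and 20 in E1728G. The median log2 differences were then -2.71 in SSY, -2.48 in MG, -2.37 in FGF and -2.38 in E1728G. ATCG00460 reached the threshold in both ML1Y libraries (6.21 and 5.85) and in MG replicate 1 (3.81). It would not have qualified without ML1Y and stays among the 112. Just outside, ATCG00110 and ATCG00230 reached 3.37 and 3.998 in a single library.

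Members resembled each other over the libraries, with a median Pearson correlation of 0.69 over the 6441 pairs of members and 11 libraries, and of 0.32 over the 9 stage libraries. These points share libraries and their normalization, and ML1Y carries much of the first value. Among 10247 nuclear genes with a symbol, those most like the median of the members in each library were XTH18, a xyloglucan endotransglucosylase (Pearson r = 0.967 over 11 libraries), SSR16 (0.965), DXR, an enzyme of the plastid isoprenoid pathway (0.959), emb2394, a plastid ribosomal protein (0.957), and NDPK2, a nucleoside diphosphate kinase (0.945).

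Nuclear genes for subunits of the photosynthesis complexes were set beside their chloroplast partners. Over all tested genes 4.75% fell in SSY, 1.43% in MG, 1.89% in FGF and 2.09% in E1728G. These shares are the background for this list and those below. Of 31 such genes 26 fell in SSY, 17 in MG, 18 in FGF and 14 in E1728G while 0 rose, with median log2 differences of -4.06 in SSY, -3.57 in MG, -3.49 in FGF and -3.07 in E1728G. PSAG, a peripheral subunit of photosystem I, averaged 5.51 in SSY and 11.57 in ML1Y (-6.06 ± 0.61, adjusted p = 0.000165). NdhM, a subunit of the NDH complex, had means of 3.42 in SSY, 3.30 in MG, 3.35 in FGF and 3.51 in E1728G, near the threshold, against 7.82 in ML1Y. RBCS1B and RBCS2B, small subunits of Rubisco with near-identical copies whose reads may be shared, differed by -5.85 ± 0.83 and -6.22 ± 0.81 in FGF. No test of the difference between chloroplast and nuclear subunits was made.

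Of 27 nuclear genes for plastid ribosomal proteins 22 fell in SSY, 10 in MG, 16 in FGF and 19 in E1728G while 0 rose, with medians of -3.41 in SSY, -2.82 in MG, -3.51 in FGF and -3.80 in E1728G. EMB3113, plastid ribosomal protein S5, averaged 5.11 in SSY, 6.39 in MG, 5.59 in FGF and 5.02 in E1728G, against 10.34 in ML1Y.

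Of 23 genes that act on chloroplast transcription, which comprise sigma factors, the nuclear-encoded polymerases, proteins associated with the plastid polymerase, the GLK factors and GUN1, 4 fell in SSY and 0 in MG, FGF and E1728G, and 0 rose in any of these 4. The shares of all tested genes that fell, 4.75% in SSY, 1.43% in MG, 1.89% in FGF and 2.09% in E1728G, are such that 0 of 23 in the last 3 is near the background. The medians were -1.43 in SSY, -0.26 in MG, -0.77 in FGF and -1.15 in E1728G. The 4 were the sigma factors SIGC (-2.57 ± 0.55, adjusted p = 0.0132), SIGE (-2.91 ± 0.63) and SIGA (-2.86 ± 0.72), and PTAC14, a protein of the transcriptionally active chromosome (-2.24 ± 0.59). FLN1, a kinase-like protein bound to the plastid polymerase, rose in MG against SSY (2.28 ± 0.55, adjusted p = 0.0475).

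Of 13 genes for plastid RNA binding, processing and decay 5 fell in SSY, 3 in MG, 3 in FGF and 2 in E1728G while 0 rose, with medians of -1.45 in SSY, -1.07 in MG, -1.49 in FGF and -1.84 in E1728G. They included the RNA-binding protein CP33, at means of 5.47 in SSY, 5.999 in MG, 5.09 in FGF and 4.99 in E1728G, against 8.48 in ML1Y, which passed in all 4 stages. The endonuclease-like CSP41A (-3.74 ± 0.65 in SSY) and its relative CRB (-3.79 ± 0.73 in SSY) fell, as did RBP31, which stabilizes chloroplast RNAs (-4.47 ± 0.83 in E1728G, adjusted p = 0.011).

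Mitochondrion-encoded genes, the other organelle transcripts in the table, were tested in the same fit. Of 88 that met the same threshold, 1 rose and 2 fell in SSY, 0 were called in MG, and 1 fell in FGF and 1 in E1728G, beside 4.75%, 1.43%, 1.89% and 2.09% of all tested genes that fell in SSY, MG, FGF and E1728G. The 88 had median log2 differences of 0.27 in SSY, 0.25 in MG, 0.53 in FGF and 0.46 in E1728G. All mitochondrial rows made up 0.228% to 1.38% of the linear sum in the stage libraries and 0.241% and 0.216% in ML1Y. E1728G replicate 2 at 1.38%, SSY replicate 2 at 1.14% and MG replicate 2 at 0.931% were the highest, and the pair of ATCG00950 held 52.3%, 47.4% and 56.9% of the chloroplast sum in them. The pair held 53.8% in SSY replicate 3, where mitochondrial rows made up 0.432%. No test of the difference between the organelles was made.

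**Figure D5:**
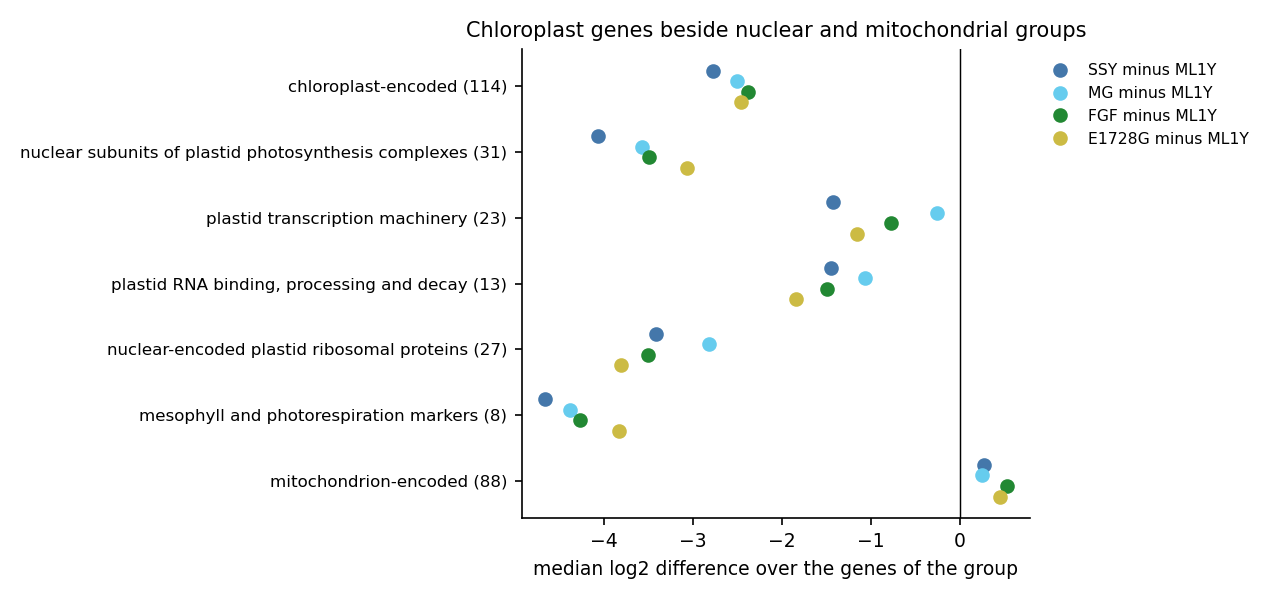
Median log2 difference of each stage minus ML1Y over the chloroplast-encoded genes, 4 groups of nuclear genes with products in the chloroplast, 8 mesophyll and photorespiration markers and the mitochondrion-encoded genes (numbers of genes in brackets). The chloroplast medians lie at -2.77 to -2.38, between those of the transcription machinery and those of the nuclear photosynthesis subunits, and the mitochondrial medians lie at 0.25 to 0.53.

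Of the marker lists of cell types, only that of mesophyll and photorespiration had most of its members called lower. Of 8 mesophyll and photorespiration genes, which all green cells express to some extent, 7 fell in SSY, 7 in MG, 6 in FGF and 6 in E1728G while 0 rose. Over all tested genes 4.75%, 1.43%, 1.89% and 2.09% fell in SSY, MG, FGF and E1728G, and 0.801%, 0.188%, 0.221% and 0.348% rose. The log2 of their summed linear values was 12.28 to 13.70 in SSY, 12.77 to 13.32 in MG, 12.84 to 13.41 in FGF and 13.40 to 14.11 in E1728G, against 17.71 to 17.94 in ML1Y, and no marker lay under the threshold in all libraries of a group. GOX1, the glycolate oxidase of photorespiration, had means of 6.82 in SSY, 7.31 in MG, 7.98 in FGF and 8.33 in E1728G, against 14.61 in ML1Y. The part of mesophyll RNA in the chloroplast result was not tested. Of 8 guard cell markers 1 rose in SSY, 0 in MG, 4 in FGF and 4 in E1728G, with summed values of 18.69 to 20.72 in SSY, 17.03 to 17.31 in MG, 20.05 to 20.77 in FGF and 20.53 to 20.92 in E1728G, against 16.79 to 17.03 in ML1Y. These sums are mostly TGG1, at 18.64 to 20.71 in SSY, and the median log2 difference over the 8 was 0.88 in SSY, 0.22 in MG, 2.97 in FGF and 2.66 in E1728G. Of 7 epidermis markers 0 were called in any stage against ML1Y, which is near those shares. Their summed values were 12.15 to 14.02 in the stage libraries and 11.78 to 11.85 in ML1Y. The median log2 difference over the 7 was 0.56 in SSY, 1.67 in MG, 0.44 in FGF and -0.48 in E1728G. Of 5 vasculature markers 1, the xylem protease XCP2, fell in all 4 stages, and the median difference over the 5 was 0.15 in SSY, -0.27 in MG, -0.71 in FGF and -0.51 in E1728G, with summed values of 7.16 to 8.17 in the stages and 8.39 to 8.42 in ML1Y.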

How the data were processed

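RNA sequencing was done on 11 libraries from 5 marker lines. The authors deposited normalized log2 values in 1 table, made with Bowtie2 and DESeq2 on build TAIR10 according to the submitters' processing notes. The counter and the transformation were not given. Base 2 was inferred from the values. Per the labels' protocols, about 10 ng of RNA went through oligo-dT beads and amplification; chloroplast RNAs mostly lack stable poly(A) tails, so levels are those of the captured part.

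Genes at or above 3.32 in at least 2 libraries were tested with limma 3.58.1 in R 4.3.3 (group means of all 11 libraries, mean trend, two-sided, Benjamini-Hochberg over 29853 genes, 0.05). The check on simulated data gave all groups the same spread for a gene. It therefore does not cover groups of unlike spread, as found here. Differences are ± standard error. The 2 rows without any value were left out. Symbols came from RefSeq TAIR10.1, used for names only.

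Members and lists were chosen with earlier results of these data known. The naming rule took the 3 highest members of each functional class, up to 6 called members per direction and up to 4 members per nuclear list; a nuclear gene it would name is not reported here. Classes, co-transcribed clusters and protein-coding rows could not be assigned from locus codes, so named chloroplast genes are the 6 with a note, with a few codes chosen after their values were seen. Alternatives were other scalings, filters, fits and left-out libraries. Same-numbered libraries did not deviate together (correlations of -0.00371 to 0.0334), so no pairing was used.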

Additional observations from a re-analysis of the deposited data

How the results depend on the processing

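The sign of the median difference of the chloroplast genes against ML1Y stayed negative in all 4 stages under every alternative run. When single libraries were left out, the number of chloroplast genes called was 13 to 65 for SSY, 0 to 24 for MG, 4 to 31 for FGF and 2 to 32 for E1728G against ML1Y, 0 to 1 for MG against SSY, 0 to 1 for FGF against MG and 0 for E1728G against FGF. The medians were then -2.97 to -2.58 for SSY, -2.89 to -2.10 for MG, -2.58 to -2.31 for FGF and -2.98 to -1.77 for E1728G against ML1Y, 0.04 to 0.77 for MG against SSY, -0.48 to 0.24 for FGF against MG and -0.40 to 0.68 for E1728G against FGF. FGF against MG turned positive without MG replicate 1, and E1728G against FGF turned negative without E1728G replicate 2. Without 1 of 2 libraries the lone library is assumed to vary like the other groups. A fit of only the groups compared called 28, 30, 73 and 45 members in SSY, MG, FGF and E1728G against ML1Y and 0 for MG against SSY, and leaving out the mean trend called 36 in E1728G. The causes were not tested. Quantile normalization, equal nuclear medians, equal linear totals, 1 added on the linear scale, no filter and a filter at 50 kept each count within 1.5 times. With the replicate number as a replicate block the counts were 54 for SSY, 20 for MG, 30 for FGF and 29 for E1728G against ML1Y, 1 for MG against SSY and 0 for the other two. Quantile normalization moved the median for MG against SSY to 0.18.

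Added after seeing the data, 1 row of each near-identical pair, medians over libraries and leaving out the 2 members kept through ML1Y alone kept each median within the spread of library medians of 0.58. Without the 20 rows of highest mean, the chloroplast share was 5.60% and 2.48% in MG, 3.24% and 3.05% in FGF, and 25.9% and 27.4% in ML1Y replicates 1 and 2. A share over protein-coding chloroplast rows was not run, because the codes are not paired with gene types here. Depth is unknown, so no limit of detection can be given.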
